A study of Mus musculus with 8 samples.

Results

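Most of the genes described here encode nuclear subunits of respiratory complex III, respiratory complex IV (cytochrome c oxidase) and ATP synthase. They were chosen by symbol, as every gene of the deposited table whose name begins with Uqcr, Cox followed by 4 to 8, or Atp5. Cox4nb and genes under other names were left out. This gave 43 of 23420 genes: 8 for complex III, 18 for complex IV and 17 for ATP synthase. These counts include Cox7a2l, a supercomplex factor, and Atp5s and Atp5sl, which share only the name. Whole aortas of 8 mice were sequenced, with 1 library per mouse. Lethally irradiated ApoE-/- recipients, 6 weeks old, received fetal liver cells that were either Ntn1-/- ApoE-/- (4 mice, Ntn1-/-→ApoE-/-, called Ntn1-/- below) or Ntn1+/+ ApoE-/- (4 mice, WT→ApoE-/-, called WT below). After 6 weeks of recovery all recipients were given angiotensin II at 1 µg/kg/min for 28 days, so both groups share the ApoE deficiency of donor and host, the irradiation and the infusion. Only cells derived from the graft lack Ntn1, and the vessel wall of the host keeps the gene. Replicates are named A to D within each group, and nothing in the labels pairs a letter across groups.

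Complex III passes electrons from ubiquinol to cytochrome c, complex IV passes them from cytochrome c to oxygen, and both pump protons out of the mitochondrial matrix. ATP synthase lets the protons flow back through its membrane part, F0, and uses that flow to make ATP in its catalytic head, F1. The catalytic subunits of complex IV, cytochrome b of complex III and subunits a and A6L of ATP synthase are encoded by mitochondrial DNA and were not analysed here. The nuclear subunits are housekeeping genes whose level follows the mitochondrial content of a tissue, which is high in heart, skeletal muscle and brown fat and lower in vascular smooth muscle. Several complex IV subunits exist as a common form and a form of heart and muscle, of lung or of testis.

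Promoter sequences are shown because the members varied together from library to library, and because the isoforms Cox8a and Cox8b differ in the matches below. RefSeq windows (GRCm38.p6) from 250 bases before to 50 bases after the start were found for 34 members, 3 of them under a newer symbol, and not for Uqcrc2, Uqcrb, Uqcrq, Cox4i1, Cox4i2, Cox6a2, Cox6c, Cox8c and Atp5a1. The letters searched on both strands included GCGCA and GCGC with any 1 base between them, the core of the motif of NRF1. They also included CCGGAAG, the core of the motif of ETS factors such as GABP, and TATAAA, the letters of the TATA box. Both NRF1 and GABP are known regulators of respiratory genes. The NRF1 core was present in 7 of 34 members (20.6%) and in 4.78% of all 27025 promoters, CCGGAAG in 9 of 34 (26.5%) and in 9.12% of all, and TATAAA in 3 of 34 (8.82%) and in 14.2% of all. At least 1 of the first 2 was present in 13 members (38.2%) and in 13.0% of all promoters. Further letters searched were those of the YY1 motif, AAGATGGC, present in 3 of 34 members (8.82%) and in 2.88% of all. GGGCGG, the letters of SP factors, was present in 12 of 34 (35.3%) and in 35.9% of all, and CCAAT in 19 of 34 (55.9%) and in 37.9%. Positions are given for matches in the first 280 bases of a window, counting the annotated start as base 1. Over the full window Uqcrc1 had 2 matches to the NRF1 core, and Cox8a had 2 to CCGGAAG. Uqcrc1 held the NRF1 core on the opposite strand from base 6, and Cox6a1 held it from bases -162 and -117. Cox6a1 and Cox8a held CCGGAAG on the opposite strand, from bases -16 and -5. Atp5k held the NRF1 core from base -50 and CCGGAAG on the opposite strand from base 13. Cox8b, the muscle form paired with Cox8a, held neither but had TATAAA from base 5, which is downstream of the annotated start, whereas a TATA box lies upstream of the start it serves. Not every pair of isoforms differed: Cox7a1 and Cox7a2 both held 0 matches to the NRF1 core, CCGGAAG and TATAAA. Cox6b1 held CCGGAAG and Cox6b2 did not. These are matches of letters, not sites shown to be bound. The first 280 bases of these 5 windows are printed 5′ to 3′ along the gene, with the matches in capitals, from chr9:108936398-108936677 on the plus strand for Uqcrc1, and on the minus strand from chr5:115348929-115349208 for Cox6a1, chr19:7217587-7217866 for Cox8a, chr7:140900417-140900696 for Cox8b and chr5:108434370-108434649 for Atp5k.
Uqcrc1: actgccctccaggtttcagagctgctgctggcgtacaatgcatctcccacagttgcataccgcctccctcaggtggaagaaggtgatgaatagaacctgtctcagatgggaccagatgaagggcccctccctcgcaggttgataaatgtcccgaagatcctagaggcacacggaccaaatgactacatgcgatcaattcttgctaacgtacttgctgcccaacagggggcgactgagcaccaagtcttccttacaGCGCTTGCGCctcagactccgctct
Cox6a1: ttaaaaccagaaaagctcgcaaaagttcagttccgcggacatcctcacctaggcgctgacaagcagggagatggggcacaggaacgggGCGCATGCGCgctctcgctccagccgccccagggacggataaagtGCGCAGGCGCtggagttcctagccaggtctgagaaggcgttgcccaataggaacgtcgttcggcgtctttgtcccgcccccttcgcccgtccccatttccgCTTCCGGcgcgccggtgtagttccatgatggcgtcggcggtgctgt
Cox8a: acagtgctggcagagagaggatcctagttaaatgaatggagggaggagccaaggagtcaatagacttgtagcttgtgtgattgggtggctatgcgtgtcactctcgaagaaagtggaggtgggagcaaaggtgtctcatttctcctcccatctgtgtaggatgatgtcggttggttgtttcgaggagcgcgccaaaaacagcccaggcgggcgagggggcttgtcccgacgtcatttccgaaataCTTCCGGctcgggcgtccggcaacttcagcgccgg
Cox8b: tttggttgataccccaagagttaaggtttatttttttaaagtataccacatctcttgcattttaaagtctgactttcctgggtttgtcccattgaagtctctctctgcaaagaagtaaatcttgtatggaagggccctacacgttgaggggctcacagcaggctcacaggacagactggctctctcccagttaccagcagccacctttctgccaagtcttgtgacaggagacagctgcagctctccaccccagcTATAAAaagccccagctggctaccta
Atp5k: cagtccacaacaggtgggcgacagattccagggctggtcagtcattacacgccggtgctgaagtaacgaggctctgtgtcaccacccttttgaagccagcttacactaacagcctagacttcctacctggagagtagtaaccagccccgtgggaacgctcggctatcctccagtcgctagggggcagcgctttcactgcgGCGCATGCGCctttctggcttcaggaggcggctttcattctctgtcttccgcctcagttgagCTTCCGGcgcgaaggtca

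The 8 libraries held 19879329 to 28202931 reads in genes, and the values below are reads divided by the size factor of the library, called normalized reads. Smooth muscle markers summed to 324266 to 841059 normalized reads in Ntn1-/- and to 479975 to 798943 in WT, so the labelled tissue was present. Markers of brown fat, white fat and cardiac, skeletal and liver cells were also read in every library, brown fat and liver markers most in WT D and cardiac markers most in WT C. Results that rest on WT D are given with and without it, and that of Cox6a2 also without WT C. The Ntn1 transcript averaged 7923 ± 2419 normalized reads over the Ntn1-/- libraries and 7564 ± 1698 over the WT libraries (SD, n = 4 each), which does not check the genotype of the graft, since the host keeps the gene.

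Of the 43 members, 41 reached a mean of 10 normalized reads over the 8 libraries and were tested with all 14931 genes that did. The other members, Cox7b2 and Cox8c, both testis forms of complex IV subunits, had 0 reads in all 8 libraries. A count of 0 allows up to 3 reads of a library, and this floor covers counting error only. Together the members took 1.06 to 1.56% of all reads in genes in the Ntn1-/- libraries and 1.13 to 1.83% in WT.

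Estimates were lower in Ntn1-/- than in WT for 39 of the 41 members, against 52.4% of all genes tested. The median log2 fold change was -0.21 for the 8 members of complex III, -0.22 for 16 of complex IV and -0.21 for 17 of ATP synthase, against -0.01 for all genes tested. No member was called by limma at an adjusted p under 0.05 (Benjamini-Hochberg over 14931 genes, background 0.0%), and adjusted p-values of the members ran from 0.255 to 0.959. An unadjusted p under 0.05 was reached by 3 members, all lower, where 7.25% of all genes were lower and 8.37% higher by the same rule. Neither edgeR (background 0.0%) nor DESeq2 (background 3.22% of the 15729 genes to which it gave an adjusted p) called a member. Each gave 3 members an unadjusted p under 0.05, where 16.5% of all genes did by edgeR and 17.9% by DESeq2, in either direction. The standard error of a member had a median of 0.19 on the log2 scale and ranged from 0.09 to 0.69, so that for most members a difference of the size of the medians was close to 1 standard error.

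The library WT D stood apart from the rest of its group. It held the highest value of the 8 libraries for 36 of 41 members, against 18.7% of all genes with a single highest library, and in 34 of those the next highest was Ntn1-/- C. The level of a member in WT D was 0.383 to 2.17 times the mean of WT A to C, with a median of 1.58 times. Left out of the fit, this library took the medians to -0.03, -0.03 and -0.10 for complex III, complex IV and ATP synthase, and the number of lower estimates from 39 to 30 of 41. Without WT D, 1 member (Atp5g1) kept an unadjusted p under 0.05, where 4.6% of all genes were lower and 6.58% higher. Leaving out Ntn1-/- C instead gave medians of -0.32, -0.35 and -0.29 and 6 members at an unadjusted p under 0.05 (background 7.13% lower and 8.79% higher), and an offset for transcript length and GC content in each library gave -0.10, -0.13 and -0.13 and 0 members by limma (background 5.49% lower and 5.76% higher).

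**Figure D1:**
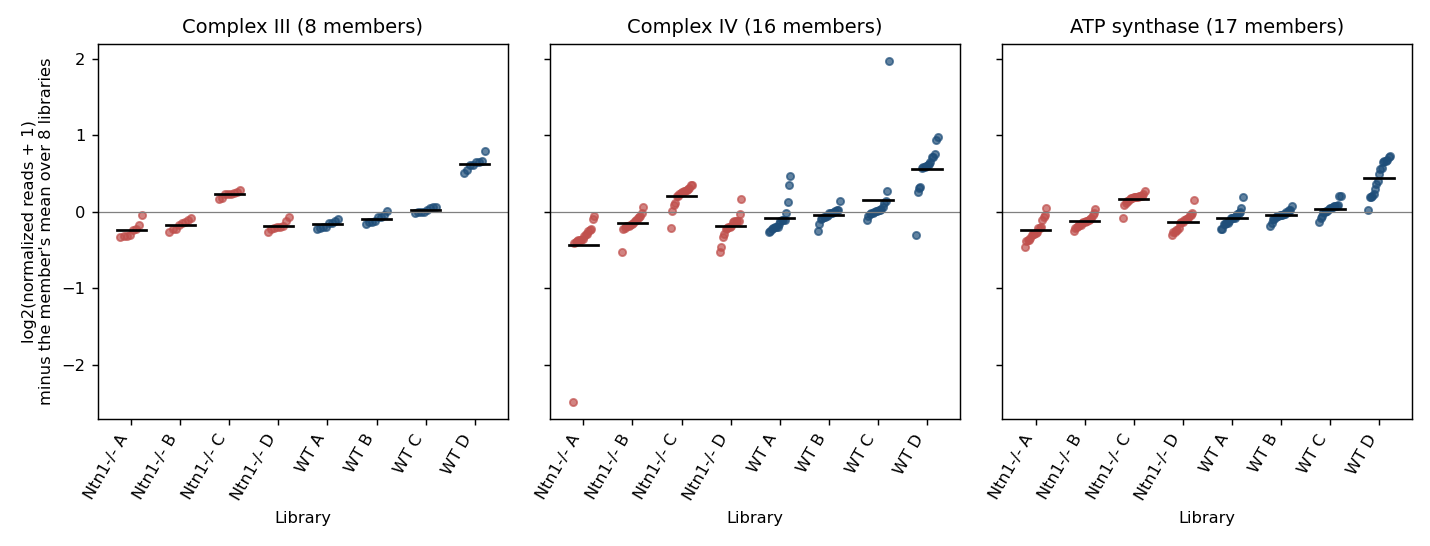
Each point is 1 of 41 members; the vertical axis is its log2(normalized reads + 1) minus its own mean over 8 libraries, the horizontal axis the library (red Ntn1-/-, blue WT), and the bar is the mean of the members of a complex. Complex III members lie close together in every library, at a mean of 0.63 in WT D and 0.23 in Ntn1-/- C, while the lone points of complex IV at the bottom and top are Cox6a2 in Ntn1-/- A and WT C.

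Brown fat markers shared the highest libraries of the members, but not the lowest. The marker sum was 80096 normalized reads in WT D, 44118 in Ntn1-/- C, and 23361 to 37055 in the other 6 libraries. Of the 10 markers 7 were highest in WT D. Of the 9 that were tested, 7 had lower estimates in Ntn1-/- and 2 higher. The sum was lowest in Ntn1-/- D, whereas 27 of 41 members were lowest in Ntn1-/- A, where the sum was 31830. Ucp1, the uncoupling protein that makes heat in brown fat, was at 12889.8, 20231, 20683 and 6332 in Ntn1-/- A to D, against 18756, 11739.7, 17302 and 46338 in WT A to D. Cidea, a lipid droplet protein of brown fat, was at 10691, 10416, 16038 and 10624 in Ntn1-/- A to D, against 11189, 11078, 11807 and 22016 in WT A to D. Both were highest in WT D and next highest in Ntn1-/- C, as were most members. Liver markers were also highest in WT D, all 8 of them, but not next highest in Ntn1-/- C: their sum was 8985 normalized reads in WT D, 6904 in WT C, 6783 in WT A and 625 in WT B, against 398 to 1923 in Ntn1-/-, with 749 in Ntn1-/- C. Their median log2 fold change was -2.66, with 6 of 8 at an unadjusted p under 0.05 by limma (background 7.25% lower). At an adjusted p under 0.05, 0 were called by limma (background 0.0%) and 6 by DESeq2 (background 3.22%). The part of liver markers in the members' values was not tested. The defining brown fat markers were above 0 in every library, Zic1 being the lowest at 1.99 to 9.21 normalized reads. A covariate was chosen after these values were seen, the mean log2 level of 6 of the 10 brown fat markers (Ucp1, Cidea, Elovl3, Dio2, Otop1 and Kcnk3). Ppargc1a, Cpt1b, Zic1 and Lhx8 were not part of it. With this covariate the medians were 0.01, 0.01 and -0.07 for complex III, complex IV and ATP synthase. A lower estimate was found for 21 members and a higher one for 20, and 0 had an unadjusted p under 0.05 by limma (background 4.33% lower and 6.08% higher). As the marker sum was highest in WT D, this fit is not independent of the one without WT D. The part of brown fat in the members' values was not tested. In whole tissue, fewer cells of a type and less RNA per cell cannot be told apart.

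**Figure D2:**
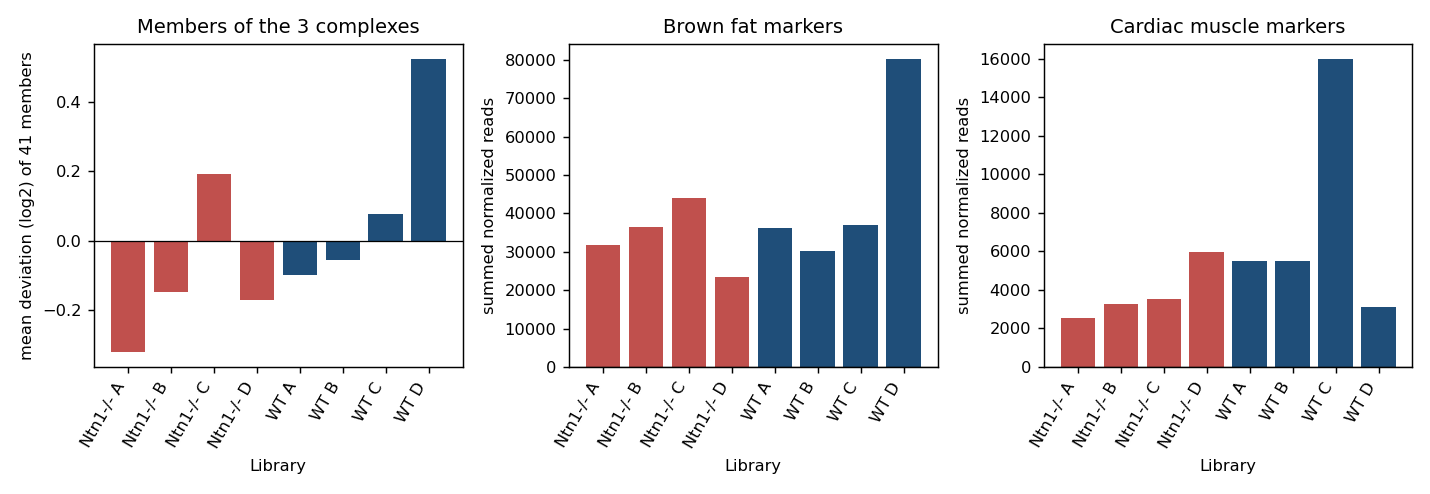
Bars give, for each library (red Ntn1-/-, blue WT), the mean log2 deviation of 41 members, and the summed normalized reads of 10 brown fat markers and 10 cardiac muscle markers. WT D is highest for the members and for brown fat markers, and WT C for cardiac markers, at 15957 normalized reads.

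In complex III, Uqcrc1 and Uqcrc2 encode the large core proteins that face the matrix, and Uqcrfs1 the Rieske iron-sulfur protein that carries electrons towards cytochrome c1. Uqcrc1 was at 10483, 10063, 13393 and 10274 normalized reads in libraries Ntn1-/- A to D and at 10676, 10721, 12275 and 18739.9 in WT A to D. Its log2 fold change was -0.21 (SE 0.19, 95% interval -0.65 to 0.22, adjusted p = 0.616 by limma). WT D was highest and Ntn1-/- C second, above WT A, WT B and WT C, so the groups overlapped. Uqcrc2 was at 7750.0, 6682, 9393 and 7639 normalized reads in libraries Ntn1-/- A to D and at 6891, 7294, 8004 and 11314 in WT A to D. It had the smallest difference of the complex, -0.07 on the log2 scale (SE 0.17), and 0.08 without WT D. For Uqcrfs1 the values were 4723, 4883, 6712 and 5049 in Ntn1-/- A to D, against 4717, 5081, 5668 and 8056 in WT A to D. The log2 fold change of Uqcrfs1 was -0.12 (SE 0.18), and 0.04 without WT D.

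The 5 small subunits of complex III had log2 fold changes of -0.20 to -0.25. Uqcrh, the hinge protein that helps cytochrome c bind cytochrome c1, was at 5928, 6960.2, 8265 and 6361 normalized reads in libraries Ntn1-/- A to D and at 6937, 7160.0, 7334 and 11322 in WT A to D, with a log2 fold change of -0.23 (SE 0.18), the smallest p of the complex (unadjusted p = 0.22, adjusted p = 0.544 by limma). Uqcrq was at 5461, 5531, 7651 and 5386 in Ntn1-/- A to D, against 5642, 5769.7, 6729 and 11233 in WT A to D, in normalized reads, and WT D stood at 1.86 times the mean of WT A to C, more than any other member of the complex. Ntn1-/- C was second in all 8. The small subunit Uqcr10 was at 3502, 3973, 5167 and 3840.5 in Ntn1-/- A to D, against 3848, 4427, 4465 and 6916 in WT A to D. Uqcr11, another small subunit, was at 4204, 4788, 6176 and 4626 in Ntn1-/- A to D, against 4743, 5009, 5244 and 8263 in WT A to D. Both had WT D highest, with log2 fold changes of -0.23 and -0.21. Uqcrb, the remaining small subunit, ranged from 4106 to 6073 normalized reads in Ntn1-/- and from 4670.1 to 7741 in WT. The log2 deviations of the 8 members from their own means had an SD within a library of only 0.03 to 0.10.

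**Figure D3:**
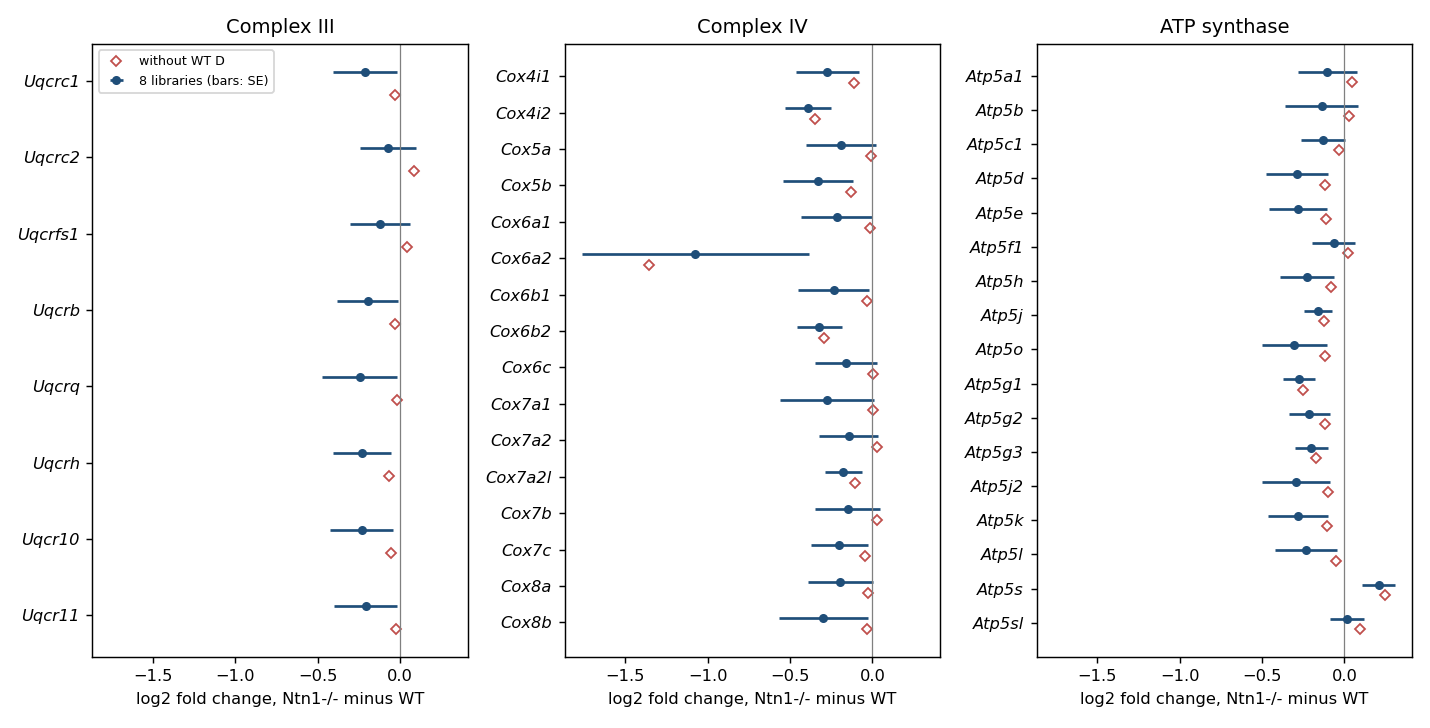
Log2 fold change of each tested member, Ntn1-/- minus WT, by complex: filled points with bars are the fit over 8 libraries and its standard error, open diamonds the same fit without WT D. Diamonds lie nearer to 0 than the points for most members; Cox4i2, Cox6a2, Cox6b2 and Atp5g1 keep values of -0.35, -1.36, -0.29 and -0.25.

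Among the common subunits of complex IV, Cox4i1 encodes the largest nuclear subunit, and Cox5a and Cox5b subunits that sit on its matrix side. Cox4i1 was at 12472, 14166, 18555 and 14213 normalized reads in libraries Ntn1-/- A to D and at 14801, 15963, 16861 and 24893 in WT A to D. The log2 fold change was -0.27 (SE 0.19, adjusted p = 0.509 by limma) and -0.11 without WT D. Cox5b was at 6178, 7330.1, 9412 and 6714 in Ntn1-/- A to D, against 7581, 7682, 8822 and 13848 in WT A to D, with the largest difference of the common subunits, -0.33 (SE 0.21) on the log2 scale and -0.13 without WT D. Values of Cox5a were 4707, 5430.3, 7673 and 5668 in Ntn1-/- A to D, against 5106, 6142, 6251 and 9655 in WT A to D, a log2 fold change of -0.19 (SE 0.21). In each of the 3 genes Ntn1-/- C exceeded WT A, WT B and WT C, so the groups overlapped. Cox6c, Cox7b and Cox7c, further common subunits, had log2 fold changes of -0.16, -0.15 and -0.20, and WT D was again highest in all of them. Cox7a2l, which links complexes III and IV into supercomplexes, was at 4143, 5019.5, 5376 and 4683 in Ntn1-/- A to D, against 5532, 4829, 5077 and 6294 in WT A to D, and its spread was smaller (log2 fold change -0.18, SE 0.11, adjusted p = 0.47 by limma).

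Cox4i2, the form of subunit 4 known from lung and low oxygen, was the only member of the 3 complexes whose groups did not overlap. It was at 129, 128, 116 and 97.2 normalized reads in libraries Ntn1-/- A to D and at 170.4, 133, 147 and 167 in WT A to D, every Ntn1-/- library lying below every WT library. By this rule 5.34% of all genes tested were lower and 5.13% higher. The means were 117 ± 14.9 normalized reads (SD, n = 4) in Ntn1-/- and 154 ± 17.9 (SD, n = 4) in WT, a log2 fold change of -0.39 (SE 0.14, 95% interval -0.71 to -0.07), with an unadjusted p of 0.0215 and an adjusted p of 0.262 by limma. The exact permutation test over 35 splits gave p = 0.0286, 2-sided, the smallest that 4 against 4 libraries allow. Unlike the common subunits it was not highest in WT D, and without that library the log2 fold change was -0.35. With the offset for length and GC content it was -0.24 (unadjusted p = 0.13 by limma). The gene lies at chr2:152579909-152590773 (mm9, plus strand), no other gene overlaps its exons, and none of its 50-base stretches occurs elsewhere in the genome. Per kb of transcript it reached only 0.00582 to 0.0108 of the level of Cox4i1, and this ratio overlapped between the groups (exact permutation p = 0.629, n = 4 each, 2-sided).

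The tissue forms fell into 2 kinds by level. Cox8b and Cox7a1, forms of rodent heart, skeletal muscle and brown fat, were as abundant as the common forms, whereas Cox6a2, Cox6b2 and Cox4i2 were minor. Cox8b was at 5564, 6168, 9192 and 5715 normalized reads in libraries Ntn1-/- A to D and at 6291, 6471, 7303 and 13853 in WT A to D, and WT D and Ntn1-/- C stood apart from the rest of their groups. Its common partner Cox8a was at 6294, 7603, 10036 and 7519 in Ntn1-/- A to D, against 7079, 8309, 8371 and 12585 in WT A to D, with the same order at the top. Per kb, the ratio of Cox8b to Cox8a was 1.66 in WT D and 1.14 to 1.38 in the 4 Ntn1-/- libraries, with WT from 1.17 upwards (exact permutation p = 0.514 for the difference of the groups, n = 4 each). Cox7a1 was at 2145, 2494, 3339 and 1817 in Ntn1-/- A to D, against 2427, 2209.6, 2524 and 5169.9 in WT A to D. Cox7a2, its partner in most tissues, was at 4099, 4531, 5677 and 4139 in Ntn1-/- A to D, against 4439, 4567, 4448 and 7206 in WT A to D. Their ratio per kb was again highest in WT D, 1.49, against 0.909 to 1.22 in the other 7 libraries. WT D also had the highest sums of brown fat and liver markers, and the part of either in these ratios was not tested. The log2 fold changes were -0.30 for Cox8b (SE 0.27), -0.19 for Cox8a, -0.28 for Cox7a1 (SE 0.29) and -0.14 for Cox7a2, none called by limma. Without WT D they were -0.03, -0.03, 0.002 and 0.03.

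Cox6a2, the form of subunit 6A of heart and skeletal muscle, had the largest difference over the 8 libraries and the largest error of all members, and its difference rested on 2 of them. It was at 19.9, 122, 127 and 131 normalized reads in libraries Ntn1-/- A to D and at 161, 119, 459 and 94.3 in WT A to D, so that Ntn1-/- A was lowest and WT C highest, 23.0 times above it. The log2 fold change was -1.07 (SE 0.69, 95% interval -2.64 to 0.49, adjusted p = 0.472 by limma). It was -0.42 without Ntn1-/- A, where Cox4i2 had the larger difference (-0.44), -0.60 without WT C and -1.36 without WT D. Cardiac muscle markers moved with it: their sum was 15957 normalized reads in WT C against 2548 to 5968 in the other 7 libraries, lowest in Ntn1-/- A, and 6 of the 10 were highest in WT C. Skeletal muscle markers did not: their sum was 10659 and 10721 normalized reads in Ntn1-/- B and C against 317 to 3470.3 in the other 6 libraries, and 11 of 12 had higher estimates in Ntn1-/- (median 0.78, 0 at an unadjusted p under 0.05). The part of either in the difference was not tested. Ckmt2, the mitochondrial creatine kinase of striated muscle, was likewise at 12.5, 118, 147 and 156 in Ntn1-/- A to D, against 155, 121, 459 and 36.5 in WT A to D. Exons of Cox6a2 overlap those of Itgad on the opposite strand, and reads of the 2 genes cannot be told apart without strand. Its partner Cox6a1 was at 9174, 10908, 14065 and 10015 in Ntn1-/- A to D, against 10128, 11335, 11626 and 19161 in WT A to D, with a log2 fold change of -0.21 (SE 0.22).

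Cox6b2, known from testis, was read at a low level in every aorta, at 258, 192, 278 and 272 normalized reads in libraries Ntn1-/- A to D and at 273, 305, 335 and 330.0 in WT A to D. Ntn1-/- B was lowest, WT C highest, and the groups overlapped by Ntn1-/- C and WT A alone. The log2 fold change was -0.32 (SE 0.14, unadjusted p = 0.0446, adjusted p = 0.309 by limma), -0.29 without WT D and -0.18 with the offset for length and GC content (unadjusted p = 0.161 by limma). The common form Cox6b1 was at 6993, 8041, 10946 and 7880.5 in Ntn1-/- A to D, against 7853, 8550.3, 9290.4 and 14877 in WT A to D, and the ratio of Cox6b2 to it was 0.0203 to 0.0339 per kb, with a log2 fold change of -0.23 (SE 0.22) for Cox6b1.

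**Figure D4:**
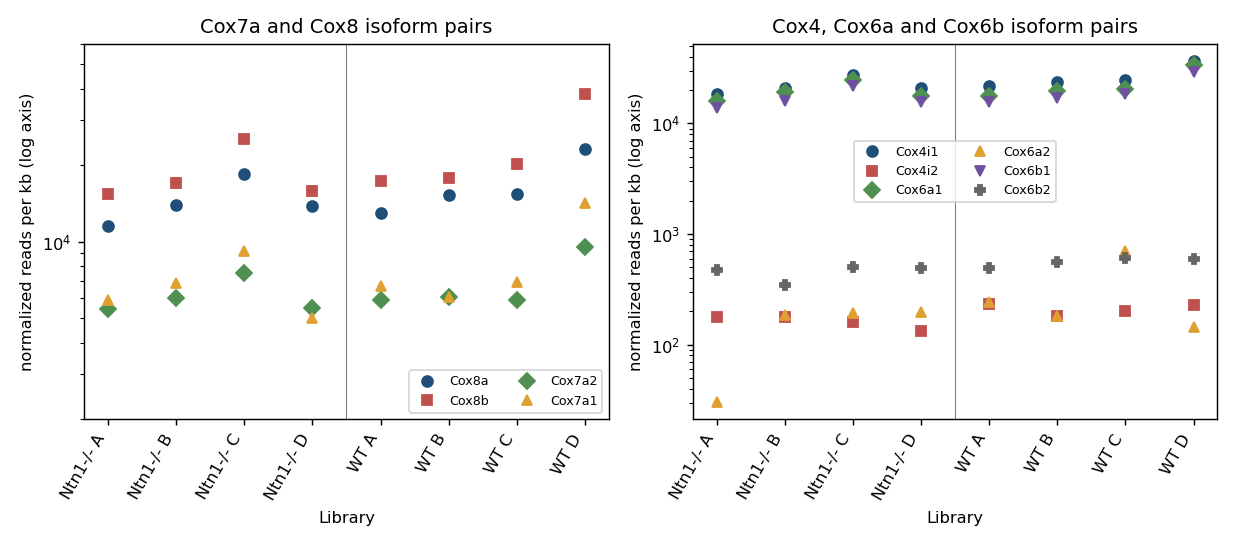
Levels of paired complex IV isoforms in normalized reads per kb of transcript (log axis) in each library, with Cox7a and Cox8 forms on the left and Cox4, Cox6a and Cox6b forms on the right. Cox8b lies above Cox8a in all 8 libraries, whereas Cox4i2, Cox6a2 and Cox6b2 lie far below their partners.

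In the catalytic head of ATP synthase, Atp5a1 and Atp5b encode the alpha and beta subunits that form the catalytic sites, and Atp5c1 the gamma shaft that turns within them. Atp5b was the most abundant member per kb, at 27196 normalized reads per kb as the mean of 8 libraries, followed by Cox4i1 (24286), Cox6a1 (21106) and Cox8b (20911). Its values were 44067, 42879.5, 61809 and 48354 in Ntn1-/- A to D, against 43769, 47693, 52526 and 75769 in WT A to D, and the log2 fold change was -0.14 (SE 0.22, 95% interval -0.64 to 0.37). Atp5a1 was at 24187, 23122, 30276 and 24198 in Ntn1-/- A to D, against 23729, 23693, 26251 and 36963 in WT A to D, with a log2 fold change of -0.10 (SE 0.18). Atp5c1 was at 6644, 6731, 8772 and 7419 in Ntn1-/- A to D, against 7029, 7503, 8069.8 and 9824 in WT A to D, a difference of -0.13 (SE 0.13) on the log2 scale. All 3 were highest in WT D and next highest in Ntn1-/- C, and without WT D their log2 fold changes were 0.04, 0.03 and -0.03. Atp5d and Atp5e, the delta and epsilon subunits of the central stalk, had larger differences, -0.29 and -0.28 on the log2 scale. Without WT D these were -0.12 and -0.11.

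The ring of c subunits, which turns as protons pass, is built from 1 identical mature protein that 3 genes encode. Atp5g1, the least abundant of them per kb, had the smallest p of all members. It was at 1755, 2075, 1908 and 1639 normalized reads in libraries Ntn1-/- A to D and at 2298, 1963, 2329 and 2332 in WT A to D. Means were 1844 ± 189 normalized reads (SD, n = 4) in Ntn1-/- and 2231 ± 179 (SD, n = 4) in WT, a log2 fold change of -0.28 (SE 0.09, 95% interval -0.49 to -0.06, unadjusted p = 0.0177, adjusted p = 0.255 by limma). Ntn1-/- B lay above WT B, so the groups overlapped by 1 library of each (exact permutation p = 0.0571, 2-sided, n = 4 each), and the log2 fold change was -0.25 without WT D. With the offset for length and GC content it was -0.14 (unadjusted p = 0.187 by limma). Of its 50-base stretches 73.8% occur elsewhere in the genome, so its count depends on how such reads were treated. Atp5g2, with all of its stretches found elsewhere, was at 3502, 3886, 4680.3 and 3867 in Ntn1-/- A to D, against 4219.9, 4265, 4394 and 5619 in WT A to D. Atp5g3, which has none, was at 4217, 4717, 5566 and 4795 in Ntn1-/- A to D, against 5119, 5215, 5905 and 5890.0 in WT A to D, with a log2 fold change of -0.20 (SE 0.10, adjusted p = 0.368 by limma). Atp5g3 was highest in WT C, not WT D. Per kb the 3 genes were at 2949, 6652 and 7252 normalized reads, and the ratio of Atp5g1 to Atp5g3 was 0.353 to 0.454 in Ntn1-/- and 0.389 to 0.464 in WT (exact permutation p = 0.543).

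The peripheral stalk holds the head still against the turning ring. Of its 4 genes Atp5j (coupling factor 6) had the smallest standard error of all members, at 3156, 3679.8, 4011 and 3558 in Ntn1-/- A to D, against 3911, 3857, 3964 and 4325 in WT A to D, with a log2 fold change of -0.16 (SE 0.09, adjusted p = 0.404 by limma). Its exons overlap those of Gabpa on the opposite strand. Atp5f1 (subunit b), Atp5h (subunit d) and Atp5o (the oligomycin sensitivity protein) had log2 fold changes of -0.06, -0.23 and -0.30, with SEs of 0.13 to 0.20. The small F0 subunits Atp5j2, Atp5k and Atp5l had differences of -0.29, -0.28 and -0.23 on the log2 scale, and stood furthest apart of the ATP synthase groups in WT D, with a mean log2 deviation of 0.68.

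Atp5s and Atp5sl share the name but are not subunits of the enzyme, and they were the only members with higher estimates. Atp5s was at 195, 186, 221 and 209 normalized reads in libraries Ntn1-/- A to D and at 168, 165, 178 and 191 in WT A to D. Only WT D lay above the lowest Ntn1-/- library, and the log2 fold change was 0.21 (SE 0.10, adjusted p = 0.36 by limma). Atp5sl ranged from 730.3 to 895 normalized reads in Ntn1-/- and from 708 to 912 in WT, a log2 fold change of 0.02 (SE 0.10).

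Other genes of the pathway were read from lists of assembly factors, carriers and regulators. Of 23 tested genes for complex IV assembly and related factors, 19 had lower estimates (median -0.15). An unadjusted p under 0.05 by limma was reached by 3, all lower, where 7.25% of all genes tested were lower. They were Cox19, a factor of copper delivery (-0.34), Surf1, an assembly factor (-0.20), and Coa4 (-0.34). All 7 tested genes around ATP synthase were lower (median -0.19). Among them Atpif1, the inhibitor that binds F1, was at 1357, 1565, 1629 and 1395 in Ntn1-/- A to D, against 1712, 1713, 1658 and 1676 in WT A to D, and its groups did not overlap (log2 fold change -0.19, SE 0.07, adjusted p = 0.288 by limma). Of 8 tested nucleotide and phosphate carriers 7 were lower, and Slc25a3, which imports the phosphate for ATP synthase, was at 7584, 7592, 8117 and 7461 in Ntn1-/- A to D, against 8304, 8569.8, 9183 and 9187 in WT A to D, also without overlap (log2 fold change -0.20, SE 0.08, adjusted p = 0.282 by limma). In neither gene did WT D stand apart: Atpif1 was higher in WT A and WT B, and Slc25a3 was highest in WT D by a narrow margin over WT C. Without WT D their log2 fold changes were -0.19 and -0.18. The groups did not overlap, with Ntn1-/- lower, for 5.34% of all genes tested. Of the 6 other complex III genes 4 were lower and 0 had an unadjusted p under 0.05 (median -0.07), and of 6 complex II genes 5 were lower, again with 0 (median -0.13).

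Regulators of mitochondrial biogenesis did not have lower estimates as a list: 7 of 16 were lower and 9 higher, with a median of 0.04. Gabpa, the DNA-binding subunit of the ETS factor named above, was at 746, 716, 694 and 729 in Ntn1-/- A to D, against 541, 625, 553 and 554 in WT A to D. It was higher in every Ntn1-/- library (log2 fold change 0.35, SE 0.07, adjusted p = 0.248 by limma and 0.00642 by DESeq2, background 3.22%). Exons of Gabpa overlap those of the member Atp5j on the opposite strand. Gabpb1, the partner of Gabpa, had a log2 fold change of 0.24 (SE 0.10). Polrmt, the mitochondrial RNA polymerase, was lower in every Ntn1-/- library, at 687, 727, 728 and 705 in Ntn1-/- A to D, against 808, 747, 836 and 904 in WT A to D (log2 fold change -0.21, adjusted p = 0.264 by limma). Of all genes tested, 5.34% were lower and 5.13% higher without overlap of the groups. Citrate cycle enzymes shared the highest libraries of the members, with a mean log2 deviation of 0.50 in WT D and 0.27 in Ntn1-/- C. The lowest library differed: WT B for these enzymes (-0.20) and Ntn1-/- A for the members (-0.32). The median difference of the enzymes between the groups was -0.05, with 8 of 13 lower and 0 at an unadjusted p under 0.05. It was 0.11 without WT D, with 12 of 13 higher, and 0.16 with the brown fat marker covariate, with 13 higher.

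Related groups of genes also had lower estimates in Ntn1-/-. Complex I genes were lower for 43 of 44 (median -0.20, 2 at an unadjusted p under 0.05 by limma). Mitochondrial ribosomal proteins were lower for 75 of 76 (median -0.19, 10 at that level). Cytosolic ribosomal proteins were lower for 87 of 94 (median -0.27, 59 lower and 2 higher at that level). Of all genes tested 52.4% had a lower estimate, and 7.25% were lower and 8.37% higher at that level. Without WT D the medians of complex I and of mitochondrial ribosomal proteins came to -0.05 and -0.09, while that of cytosolic ribosomal proteins was -0.22. Lower genes at an unadjusted p under 0.05 by limma then numbered 1 for complex I, 2 for mitochondrial and 25 for cytosolic ribosomal proteins. With the offset for length and GC content they numbered 2, 8 and 10. Of all genes tested, 4.6% were lower at that level without WT D and 5.49% with the offset. Whether the groups of genes differ from each other was not tested.

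**Figure D5:**
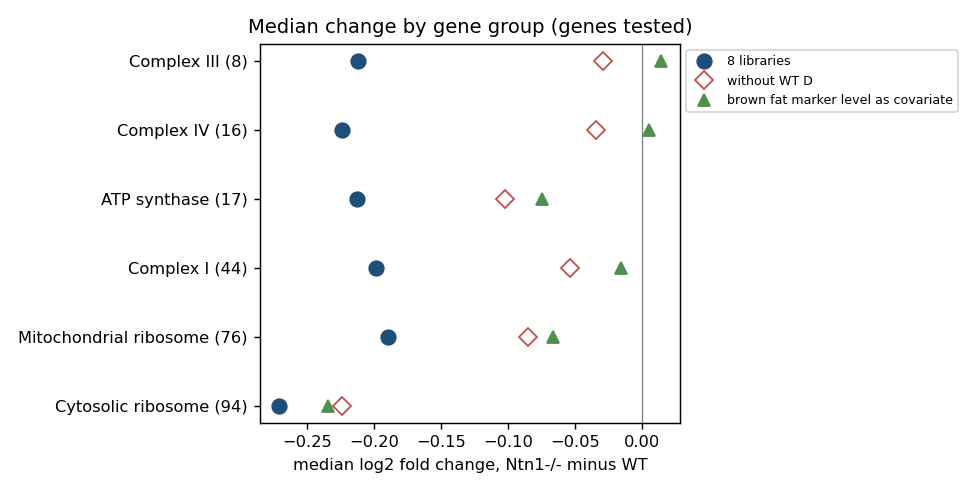
Median log2 fold change (Ntn1-/- minus WT) of each gene group, with the number of genes tested in parentheses: all 8 libraries (filled circles), without WT D (open diamonds) and with brown fat marker level as a covariate (triangles). The 3 complexes lie at -0.22 to -0.21 over 8 libraries and within -0.10 and -0.03 without WT D.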

How the data were processed

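RNA of 8 whole aortas (1 mouse and 1 library each) was read on a HiSeq, single-end, 50 nucleotides. The authors aligned reads to mm9 with TopHat 2.0.9, allowing 2 mismatches, and counted them per gene with featureCounts. The deposited signal is the read count divided by a DESeq2 size factor. The annotation, strand setting and treatment of reads with several matches are not given in the sources used here. Columns of the authors' own comparison (fold changes and p-values) and 2 tables of pathways were not used.

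Dividing by each library's smallest step gave whole reads for all 187360 values (tolerance 0.001), so depth was 19879329 to 28202931 reads in genes, which limits precision by counting error little at the levels described. No 2 libraries were duplicates. The main test was limma 3.58.1 (R 4.3.3, lmFit and eBayes with trend) on log2(normalized reads + 1), over 14931 genes whose mean reached 10, with Benjamini-Hochberg adjustment. Fold changes are on that scale, and the pseudocount understates changes of low genes. Alternatives were edgeR 4.0.16, DESeq2 1.42.0 and limma-voom on the recovered reads, other pseudocounts (0.5 and 5), filters (none and 50) and scalings, a replicate block, an offset for transcript length and GC content (available for 92.7% of genes), left-out libraries and, added after seeing the data, a brown fat marker covariate. Single genes were also tested by the exact permutation test (2-sided). Levels per kb used the coding transcript of median length. The limma, edgeR and DESeq2 fits were tested on simulated data.

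Members, lists and tests were chosen with earlier results of these data known. Values in each library are given for the 5 members of each complex with the smallest p, core subunits, tissue isoforms with their partners and c subunit genes, and up to 3 genes with the smallest p are named from other lists. P-values test the difference between the groups against the spread between mice, which limma, edgeR and DESeq2 estimate partly from other genes.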

Additional observations from a re-analysis of the deposited data

Results flagged for a closer look

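In 20 of 82 groups of 4 libraries 1 value lay far from the other 3 by Dixon's criterion, against 5.31% of such groups over all genes tested. Chance would give about 4.1 of 82 if the groups were independent, which members that vary together in the same 8 libraries are not. WT D was the value concerned in 12 of them, all among the 41 WT groups, against 2.37% of WT groups over all genes tested. It stood at 7741 normalized reads for Uqcrb, 11322 for Uqcrh and 8263 for Uqcr11, against 4670.1 to 5011, 6937 to 7334 and 4743 to 5244 in WT A to C. In complex IV it was at 19161 normalized reads for Cox6a1, 5169.9 for Cox7a1, 7206 for Cox7a2 and 13853 for Cox8b. In ATP synthase it was at 13372 normalized reads for Atp5d, 6977 for Atp5e, 5619 for Atp5g2, 4554 for Atp5k and 10528 for Atp5l. Brown fat markers (7 of 10) and liver markers (8 of 8) were highest in the same library, and their part in these values was not tested.

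Ntn1-/- C lay above the rest of its group for 6 members, at 13393 normalized reads for Uqcrc1, 6712 for Uqcrfs1, 7651 for Uqcrq, 3298 for Cox7c, 9192 for Cox8b and 30276 for Atp5a1. Cox6a2 was far below the rest in Ntn1-/- A, at 19.9 normalized reads against 122 to 131 in the other 3, and Atp5g1 in WT B, at 1963 against 2298 to 2332.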

How the results depend on the processing

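No alternative gave a member an adjusted p under 0.05. The medians of complexes III and IV stayed below 0 except with the brown fat marker covariate and without both WT C and WT D (0.0219, 0.0186 and -0.0585 for complex III, complex IV and ATP synthase in the latter), and that of ATP synthase stayed below 0 throughout. Leaving out 1 library at a time gave medians of -0.32 to -0.0286, -0.35 to -0.0343 and -0.29 to -0.10 for the 3 complexes, and 1 to 6 members at an unadjusted p under 0.05, with 1 without WT D and 6 without Ntn1-/- C. That count, 3 over all libraries, was 1 with a replicate block in limma and 0 with a replicate block in edgeR. It was 0 with the length and GC offset (with or without a replicate block), without both WT C and WT D and with the covariate. Shares over all genes are not given for the replicate blocks, the fit without both WT C and WT D and the other left-out libraries. Whether the counts of those fits differ from such shares was not examined. Lower estimates numbered 21 of 41 both without WT C and WT D and with the covariate, against 39. The letters are only names: deviations of same-letter libraries correlated at -0.01, -0.30, 0.15 and -0.26 for A to D.

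With the covariate 18 estimates turned positive on the log2 scale: Uqcrc1 0.0156, Uqcrc2 0.12, Uqcrfs1 0.082, Uqcrb 0.0135, Uqcrq 0.035, Uqcr11 0.0064, Cox5a 0.0256, Cox6a1 0.0277, Cox6b1 0.00745, Cox6c 0.033, Cox7a1 0.0934, Cox7a2 0.0671, Cox7b 0.0673, Cox8a 0.00408, Cox8b 0.0323, Atp5a1 0.0804, Atp5b 0.0621 and Atp5f1 0.0536. Without both WT C and WT D 18 did: Uqcrc1 0.037, Uqcrc2 0.14, Uqcrfs1 0.11, Uqcrq 0.058, Uqcr11 0.00677, Cox5a 0.044, Cox6a1 0.0243, Cox6b1 0.0264, Cox6c 0.0324, Cox7a1 0.0435, Cox7a2 0.0217, Cox7b 0.0831, Cox8a 0.0154, Cox8b 0.0303, Atp5a1 0.0936, Atp5b 0.0935, Atp5c1 0.0163 and Atp5f1 0.0842. Scaling by total reads turned Uqcrc2 to 0.00028 and Atp5f1 to 0.00906, and moved the median of all genes from -0.01 to 0.06. Without both Ntn1-/- B and C Atp5sl turned to -0.0257. With 1 library left out, the ranges that crossed 0 were Uqcrc2 from -0.16 to 0.0808, Uqcrfs1 from -0.24 to 0.0405, Cox6c from -0.28 to 0.00362, Cox7a1 from -0.44 to 0.0021, Cox7a2 from -0.25 to 0.0276, Cox7b from -0.27 to 0.0276, Atp5a1 from -0.19 to 0.0446, Atp5b from -0.25 to 0.0265, Atp5f1 from -0.15 to 0.0209 and Atp5sl from -0.0464 to 0.094. The cause was not tested. Depth limits the low members Cox4i2, Cox6a2, Cox6b2 and Atp5s most.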

Other observations

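Counting could differ between members by sequence. For 18 of 43 members no stretch of 50 bases of the transcript occurs a second time in mm9, while Atp5g2 had all of its stretches elsewhere, Atp5l 89.4%, Atp5g1 73.8%, Atp5h 67.9%, Uqcrb 61.5%, Cox7a2l 59.1% and Cox5b 57.7%. The log2 fold changes of these 7 were -0.21, -0.23, -0.28, -0.23, -0.20, -0.18 and -0.33, against a median of -0.21 for all 41 tested. Exons of 9 members overlap those of another gene, among them Atp5j with Gabpa, Atp5f1 with Wdr77 and Cox6a2 with Itgad, each on the opposite strand.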
